A study of Mus musculus with 25 samples.

Results

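The circadian clock genes described here are Arntl (also called Bmal1), Clock, Per1, Per2, Per3, Cry1, Cry2, Nr1d1, Nr1d2 and Dbp. They were chosen by symbol, and all 10 were found among the 25006 entries of the expression table. All 10 also passed the filter on low values, a mean of at least 10 normalized counts over the 6 libraries, which left 12262 genes to be tested. A normalized count is a gene's read count divided by a size factor of its library.

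Bulk RNA-seq was available for 6 libraries from E0771 tumours, a mammary carcinoma line grown in C57BL/6 mice, and the labels describe the material as enriched CD8+ T cells from tumour tissue. Of these, 3 libraries are labelled con (control) and 3 came from mice given anti-CD73 every 3 days. CD73, encoded by Nt5e, is the cell-surface enzyme that makes adenosine outside cells. The other 19 of the 25 samples, from cultured spleen CD8+ T cells, were not analysed here. The sources used here give neither what the control mice received nor the age and sex of the mice. They do not state the hour of collection, so no library could be placed on the daily cycle. The labels do not tie the replicates to separate animals, and the p-values measure only the spread between these libraries, which may be technical.

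The mammalian clock is a transcriptional feedback loop present in most cells, including tumour cells, macrophages and lymphocytes. ARNTL and CLOCK pair on E-box sequences and switch on the Per and Cry genes, whose proteins return to the nucleus and repress that pair. The same pair drives Nr1d1 and Nr1d2, encoding the repressors REV-ERB alpha and beta, which hold Arntl down. It also drives Dbp, a transcription factor that acts on D-box sequences. In a running clock, Dbp, Nr1d1 and the Per genes therefore peak at a different time of day from Arntl.

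To show where such sequences lie, the 250 bases before the annotated start were read from RefSeq (GRCm38.p6, the assembly of mm10) for the members that had an entry, 9 of 10 genes with 13 starts in all. Each window was searched on both strands for the E-box CACGTG, the D-box TTATGTAA, the REV-ERB and ROR core AGGTCA and the cyclic AMP response element TGACGTCA. These stood in 6.02, 0.819, 14.0 and 1.55% of 32851 promoter windows of the same length. The 4 windows that held a match at the gene's first listed start are printed 5′ to 3′ on the gene's strand, with the matches in capitals. They are Per1 (plus strand, chr11:69098699-69098948), Per3 (minus strand, chr4:151044666-151044915), Cry1 (minus strand, chr10:85185055-85185304) and Nr1d2 (minus strand, chr14:18239107-18239356).
Per1: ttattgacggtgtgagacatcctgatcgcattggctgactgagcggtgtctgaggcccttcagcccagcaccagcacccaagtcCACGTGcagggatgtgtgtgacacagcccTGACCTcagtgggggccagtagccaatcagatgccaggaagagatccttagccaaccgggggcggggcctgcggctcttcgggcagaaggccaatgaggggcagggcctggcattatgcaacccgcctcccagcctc
Per3: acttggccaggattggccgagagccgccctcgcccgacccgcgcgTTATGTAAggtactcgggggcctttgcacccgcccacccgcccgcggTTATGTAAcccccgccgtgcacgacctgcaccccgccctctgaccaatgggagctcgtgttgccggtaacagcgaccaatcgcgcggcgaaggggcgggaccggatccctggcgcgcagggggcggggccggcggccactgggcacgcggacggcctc
Cry1: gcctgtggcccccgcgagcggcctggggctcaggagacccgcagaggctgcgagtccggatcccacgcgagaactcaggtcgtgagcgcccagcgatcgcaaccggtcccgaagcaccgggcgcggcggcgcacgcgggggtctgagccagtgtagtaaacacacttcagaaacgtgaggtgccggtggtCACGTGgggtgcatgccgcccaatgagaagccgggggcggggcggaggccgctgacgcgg
Nr1d2: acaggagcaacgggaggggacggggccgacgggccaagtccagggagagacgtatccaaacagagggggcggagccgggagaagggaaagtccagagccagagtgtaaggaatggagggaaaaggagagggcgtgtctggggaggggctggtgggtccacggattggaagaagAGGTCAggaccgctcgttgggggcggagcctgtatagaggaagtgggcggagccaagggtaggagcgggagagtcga
Per1 held an E-box that begins 166 bases before the start and the AGGTCA core on the other strand 137 bases before it. Per3 held 2 copies of the D-box, beginning 205 and 158 bases before the start. Cry1 held an E-box 60 bases before its start, and Nr1d2 held the AGGTCA core 77 bases before its start. Another listed start of Clock had the AGGTCA core 119 bases before it. None of the letters searched stood in these windows of Arntl, Cry2, Nr1d1 or Dbp, which says nothing about elements elsewhere in those genes. Some listed starts, as for Per1, Arntl and Clock, lie inside the gene ranges given below. For Per1, Arntl and Clock the bases just before those ranges were not searched.

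Libraries held 10180624 to 17161679 reads in genes. Transcripts of T cells were scarce: the 11 measured genes of a T cell list of 14 took 0.00138 to 0.00527% of the reads in controls and 0.0026 to 0.00524% after anti-CD73, and none was at 0 in all libraries. All 11 lay higher after anti-CD73, as did 13 of 14 macrophage genes, while all 5 erythroid genes lay lower; their part in the clock values was not tested. Macrophage genes (14 of 14 measured) took 0.0594 to 0.117% in controls and 0.1 to 0.183% after anti-CD73, and erythroid genes (5 of 7 measured) took 0.0603 to 0.457% and 0.0682 to 0.252%. The clock values below therefore describe a mixture of cells. In such bulk material fewer cells of a type and less RNA per cell cannot be told apart. Nt5e lay at 55.7 to 92.4 normalized counts in controls and 58.2 to 100 after anti-CD73; the antibody binds the protein, so this does not check the labels. Control replicate 1 stood apart from the other controls and lay nearer to each anti-CD73 library than to them. The SD of its log2 difference was 0.75 and 0.80 from control replicates 2 and 3. From the anti-CD73 libraries it was 0.58, 0.64 and 0.60. Control replicates 2 and 3 lay at 0.50 to 0.71 from the anti-CD73 libraries. The SD over all tested genes of its log2 difference from their mean was 0.75, against 0.35 for the difference between control replicates 2 and 3. It was the single highest or the single lowest of the 6 libraries for 62.8% of the tested genes. Results are given with it and without it.

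With all 6 libraries, no clock gene passed the test between the groups, and the widest differences lay among the controls themselves. By limma, 0 of the 10 members had an adjusted p under 0.05, as did 0% of all tested genes, and 1 member had an unadjusted p under 0.05, against 15.5% of all genes. The quasi-likelihood test of edgeR called 0 members and 0% of genes, and DESeq2 called 0 members and 4.93% of genes. Of the members, 7 lay lower and 3 higher after anti-CD73, with a median log2 fold change of -0.10. Over all tested genes 6065 lay lower and 6197 higher, with a median of 0.0039.

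**Figure D1:**
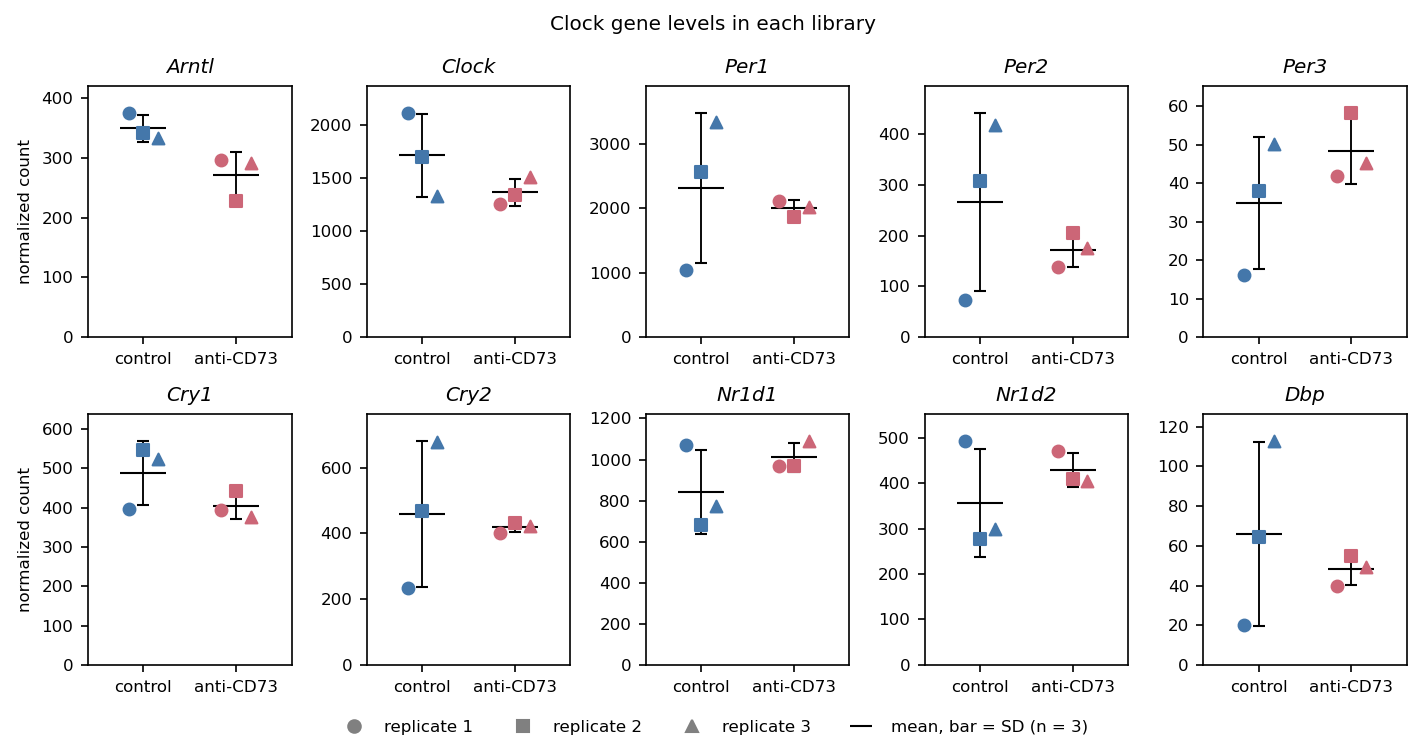
Normalized counts of the 10 clock genes in each library (y axis, linear and starting at 0), for 3 control and 3 anti-CD73 libraries. Points are libraries, marked by replicate number, and the bar shows the mean with its SD. For Per1, Per2, Per3, Cry2 and Dbp the lowest of the 6 points is control replicate 1.

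Arntl and Clock, the activating pair, both lay lower after anti-CD73 without passing. Arntl (ENSMUSG00000055116; chromosome 7, 113178471 to 113314126) stood at 376, 342 and 333 normalized counts in control replicates 1, 2 and 3. It stood at 298, 229 and 291 in anti-CD73 replicates 1, 2 and 3. It was the 1 member whose groups did not overlap, as 23.5% of all tested genes did not, 12.0% with the anti-CD73 values below. Its log2 fold change was -0.37 (SE 0.15; 95% interval -0.73 to -0.0095; limma adjusted p = 0.312). Clock (ENSMUSG00000029238; chromosome 5, 76209868 to 76305603) stood at 2116, 1700 and 1334 in controls and at 1254, 1343 and 1507 after anti-CD73. The groups overlapped, since control replicate 3 fell among the anti-CD73 values (log2 fold change -0.31, SE 0.18; limma adjusted p = 0.454).

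The Period genes, which encode repressors of that pair, were spread far more widely among the controls than among the anti-CD73 libraries. Per2 (ENSMUSG00000055866; chromosome 1, 91415977 to 91459351) stood at 73.1, 307 and 418 normalized counts in control replicates 1, 2 and 3, a range of 5.71-fold. After anti-CD73 it stood at 138, 204 and 176, a range of 1.48-fold, and all 3 values lay inside the control range. The log2 fold change was -0.31 with a standard error of 0.59 (95% interval -1.70 to 1.08; limma adjusted p = 0.838), so neither a rise nor a fall of 2-fold lay outside what these libraries allow. Counts-based fits, which weigh the mean rather than the log values, put Per2 at -0.61 in edgeR and -0.62 in DESeq2 (adjusted p = 0.634 and 0.631).

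Per1 (ENSMUSG00000020893; chromosome 11, 69095108 to 69109965), which is also induced quickly by cyclic AMP and by glucocorticoids, had the same order of controls, at a range of 3.18-fold among controls. Its values were 1048, 2552 and 3336 in controls and 2110, 1868 and 2018 after anti-CD73, where the range was 1.13-fold. The log2 fold change was -0.055 (SE 0.38; 95% interval -0.95 to 0.84; limma adjusted p = 0.962), and edgeR gave -0.19. Per3 (ENSMUSG00000028957; chromosome 4, 150997018 to 151044707) rested on few reads, 16 in control replicate 1 (95% exact Poisson interval 9.14 to 26.0 reads, for counting error only). It stood at 16.2, 38.0 and 50.1 in controls and 41.8, 58.2 and 45.2 after anti-CD73, with overlapping groups (log2 fold change 0.59, SE 0.42; limma adjusted p = 0.539). Unlike Per1 and Per2, its anti-CD73 values did not all lie inside the control range.

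The cryptochromes, the partners of the Period proteins, differed from each other in this respect. Cry2 (ENSMUSG00000068742; chromosome 2, 92403646 to 92434085) stood at 235, 468 and 678 normalized counts in controls, a 2.89-fold range. After anti-CD73 its values were 403, 431 and 423, a 1.07-fold range that sat inside the control range. The group means were 460 ± 222 and 419 ± 14.6 (SD, n = 3), and the log2 fold change was -0.0070 (SE 0.35; limma adjusted p = 0.995). Cry1 (ENSMUSG00000020038; chromosome 10, 85131700 to 85185054) varied less, at 396, 547 and 524 in controls and 395, 442 and 375 after anti-CD73. Control replicate 1 fell among the anti-CD73 values, and the other controls lay above all of them (log2 fold change -0.26, SE 0.16; limma adjusted p = 0.474).

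Nr1d1 and Nr1d2, the REV-ERB repressors of Arntl, were the members that lay higher after anti-CD73 along with Per3. Nr1d1 (ENSMUSG00000020889; chromosome 11, 98767932 to 98775377) stood at 1072, 679 and 775 normalized counts in controls and 971, 968 and 1092 after anti-CD73. Control replicate 1 reached the anti-CD73 values and the other controls did not (log2 fold change 0.29, SE 0.18; limma adjusted p = 0.483). The gene shares 1075 bases with the end of Thra, a thyroid hormone receptor gene, and reads there cannot be told apart because the sources used here do not say whether strand was kept. Thra stood at 198, 296 and 266 in controls and 332, 359 and 343 after anti-CD73 (log2 fold change 0.46, limma adjusted p = 0.284). Its part in the Nr1d1 value was not tested. Nr1d2 (ENSMUSG00000021775; chromosome 14, 18204056 to 18239106) stood at 493, 276 and 299 in controls and 471, 409 and 404 after anti-CD73. Control replicate 1 lay above all other libraries and control replicates 2 and 3 below all of them, so the anti-CD73 values lay inside the control range (log2 fold change 0.31, SE 0.23; limma adjusted p = 0.559).

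Dbp, the D-box activator and in many tissues among the outputs with the widest daily swing, had few reads and followed the order of Per2 in the controls. Dbp (ENSMUSG00000059824; chromosome 7, 45705100 to 45710203) stood at 20.3, 64.6 and 113 normalized counts in control replicates 1, 2 and 3, a range of 5.56-fold. The lowest value came from 20 reads (95% exact Poisson interval 12.2 to 30.9 reads). After anti-CD73 it stood at 40.0, 55.1 and 49.4, inside the control range (log2 fold change -0.15, SE 0.57; 95% interval -1.48 to 1.17; limma adjusted p = 0.922). Quantile normalization moved this to -0.34 and edgeR to -0.45, with adjusted p of 0.812 and 0.73. The gene shares 741 bases with Sphk2, which stood at 507 to 700 in controls and 741 to 923 after anti-CD73, and the part of those reads in the Dbp value was not tested.

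Spread among the controls was wide for these genes. The range of log2 values over the controls had a median of 1.18 over the 10 members, against 0.53 over all tested genes, and over the anti-CD73 libraries it was 0.25 against 0.24. The control range was the wider for 9 of 10 members, Arntl being the exception, and for 77.7% of all tested genes. The anti-CD73 values all lay inside the control range for 5 members (Per1, Per2, Cry2, Dbp and Nr1d2), against 34.2% of all tested genes. Control replicate 1 was the single lowest library for 5 members and the single highest for 3 (Arntl, Clock and Nr1d2), against 32.1 and 30.7% of all genes.

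Measured against control replicates 2 and 3, control replicate 1 lay below them by -2.28 for Per2, -2.02 for Dbp, -1.48 for Per1, -1.37 for Per3 and -1.26 for Cry2, as log2 differences. Of all tested genes, 0.506% lay further below for Per2, 0.71% for Dbp, 1.94% for Per1, 2.54% for Per3 and 3.35% for Cry2. It lay above them by 0.78 for Nr1d2, 0.56 for Nr1d1, 0.49 for Clock and 0.15 for Arntl, and below by -0.43 for Cry1. In the same comparison the T cell list lay above by a median of 2.46 and the macrophage list by 0.70. The erythroid list lay below by a median of -3.08. The 3 tested genes of the epithelial list had a median of -1.12 but did not move together. Krt8 stood at 1856 in control replicate 1 and at 3591 and 4559 in control replicates 2 and 3. Krt18 stood higher, at 89.4 against 54.5 and 84.6, and Krt19 had few reads, at 0 against 7.60 and 5.99. The part of this difference in cells was not tested. Control replicates 2 and 3 also differed from each other by more for the members (median size 0.37) than for all tested genes (0.15), with Dbp at -0.80 and Cry2 at -0.54 in control replicate 2 relative to 3.

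**Figure D2:**
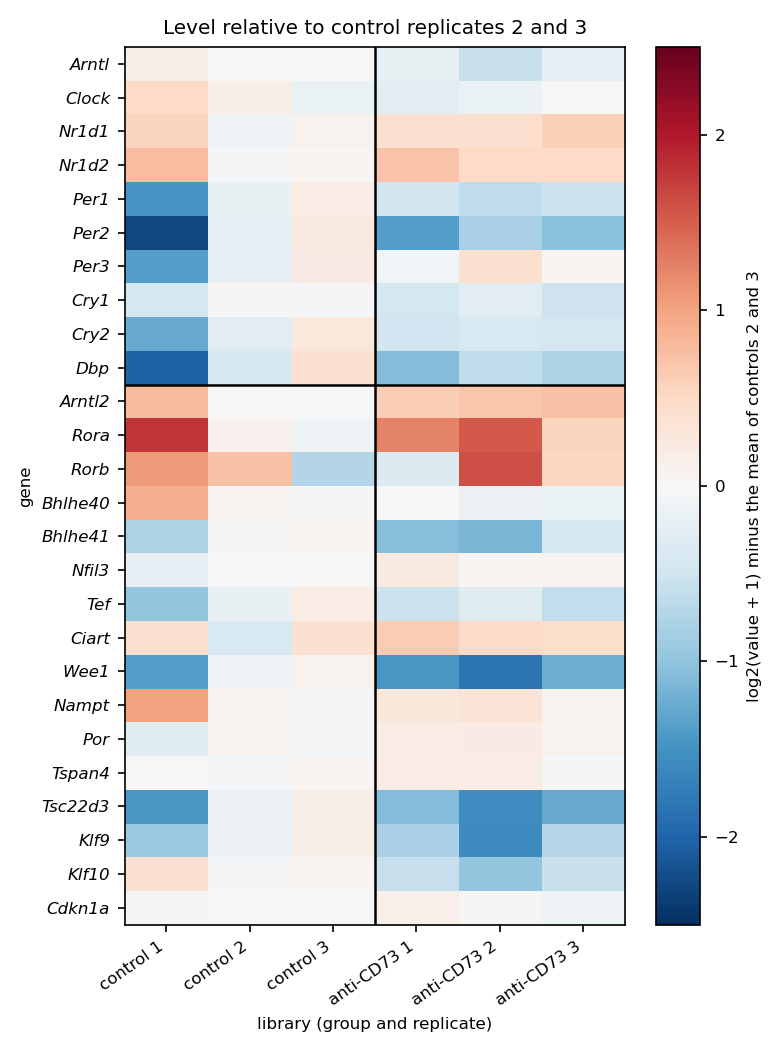
Log2(value + 1) of each gene in each library minus its mean in control replicates 2 and 3 (colour scale), with the 10 clock genes above the line and the tested genes of the lists of other loop factors and clock outputs below it. In control replicate 1 Per2 is at -2.28 and Dbp at -2.02, while Nr1d2 is at 0.78.

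Without control replicate 1, 5 of the 10 members passed the test, 3 lower and 2 higher after anti-CD73. The share of all tested genes that passed in the same fit was 22.2%, 10.3% lower and 11.9% higher, and 2 controls remained. The control left out is the one that lay nearer to each anti-CD73 library than to the other controls. Per2 fell to a fold of 0.478 (log2 fold change -1.07, SE 0.20; limma adjusted p = 0.00734). Per1 was lower by -0.55 (SE 0.12; adjusted p = 0.0124 by limma), and Cry1 by -0.41 (SE 0.11; adjusted p = 0.0299 by limma). Nr1d2 was higher by 0.57 (SE 0.12; limma adjusted p = 0.0117) and Nr1d1 by 0.48 (SE 0.10; limma adjusted p = 0.0123). Dbp (-0.83, limma adjusted p = 0.0646) and Cry2 (-0.43, limma adjusted p = 0.0746) missed the threshold in limma, and edgeR added Dbp to the calls (adjusted p = 0.0491). That made 4 members lower and 2 higher in edgeR, against 9.70 and 12.3% of all genes. DESeq2 called 3 lower and 2 higher, against 9.54 and 12.3% of all genes. Arntl (-0.32), Clock (-0.14) and Per3 (0.13) did not pass. The 2 remaining controls and the anti-CD73 libraries did not overlap for 8 members, all but Clock and Per3, and for 53.5% of all tested genes. Of the 8, 6 had the anti-CD73 values below and 2 above, against 27.8 and 25.7% of all tested genes.

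Leaving out a different control moved several members the other way. Without control replicate 3, Per1 had a log2 fold change of 0.29, Per2 0.18, Cry2 0.34 and Dbp 0.38, none past the threshold (limma adjusted p from 0.601 for Cry2 to 0.898 for Per2). In that fit 0 of 10 members passed, as with any other single library left out except control replicate 1.

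**Figure D3:**
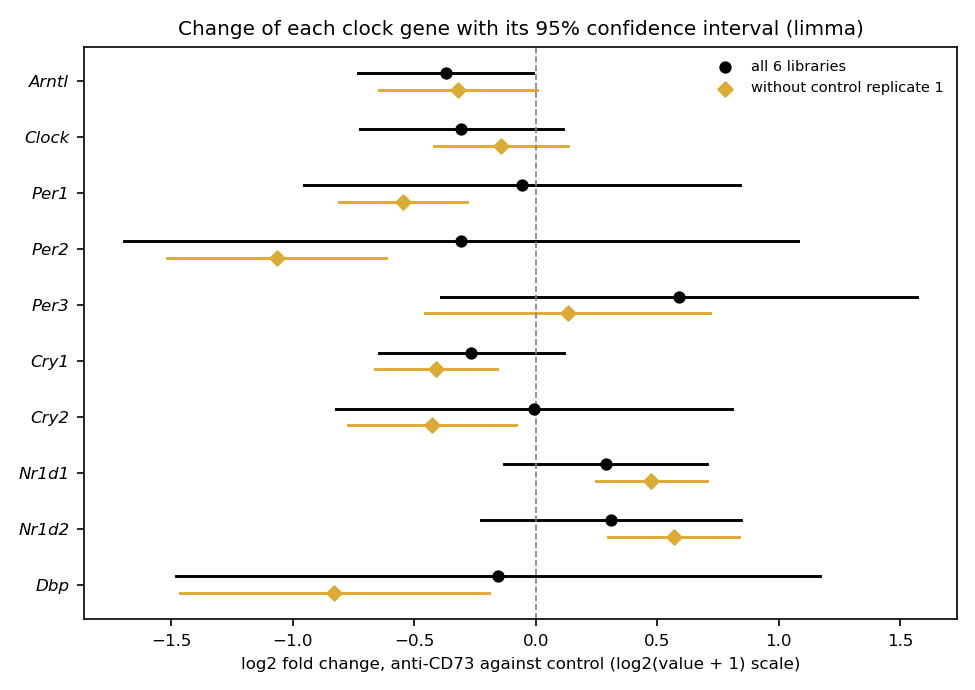
Log2 fold change of each clock gene after anti-CD73 (x axis) with its 95% confidence interval from limma, for all 6 libraries (black) and without control replicate 1 (yellow). With all 6 libraries 9 of the intervals cross 0; without control replicate 1 the interval of Per2 runs from -1.51 to -0.62.

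A ratio of 2 members within a library does not depend on how that library was scaled. The size of such a ratio also reflects gene length, so only its change between libraries is described, and the pairs were chosen after the values were seen. The log2 ratio of Nr1d1 to Arntl, repressor to target, was 1.51, 0.99 and 1.22 in control replicates 1, 2 and 3 and 1.71, 2.08 and 1.91 after anti-CD73. The groups did not overlap, as those of Arntl alone did not, and the mean difference was 0.66. Leaving out control replicate 1 could not make them overlap. Of all pairs computed, some not shown here, it was the only pair without overlap in all 6 libraries. Among single genes 23.5% did not overlap, and 53.5% without control replicate 1. No such share was computed for ratios. The log2 ratio of Nr1d1 to Per2, both driven by the ARNTL and CLOCK pair, was 3.87, 1.15 and 0.89 in controls and 2.82, 2.24 and 2.63 after anti-CD73. Here the groups overlapped because control replicate 1 lay above every other library, and the ratio spanned 7.91-fold among controls and 1.49-fold among anti-CD73 libraries. Arntl to Dbp, a pair with opposed phases in a running clock, spanned 6.28-fold among controls (4.21, 2.40 and 1.56 on the log2 scale) and 1.79-fold after anti-CD73 (2.90, 2.05 and 2.56). Cry2 to Cry1 was -0.76, -0.23 and 0.37 in controls and 0.027, -0.035 and 0.17 after anti-CD73.

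**Figure D4:**
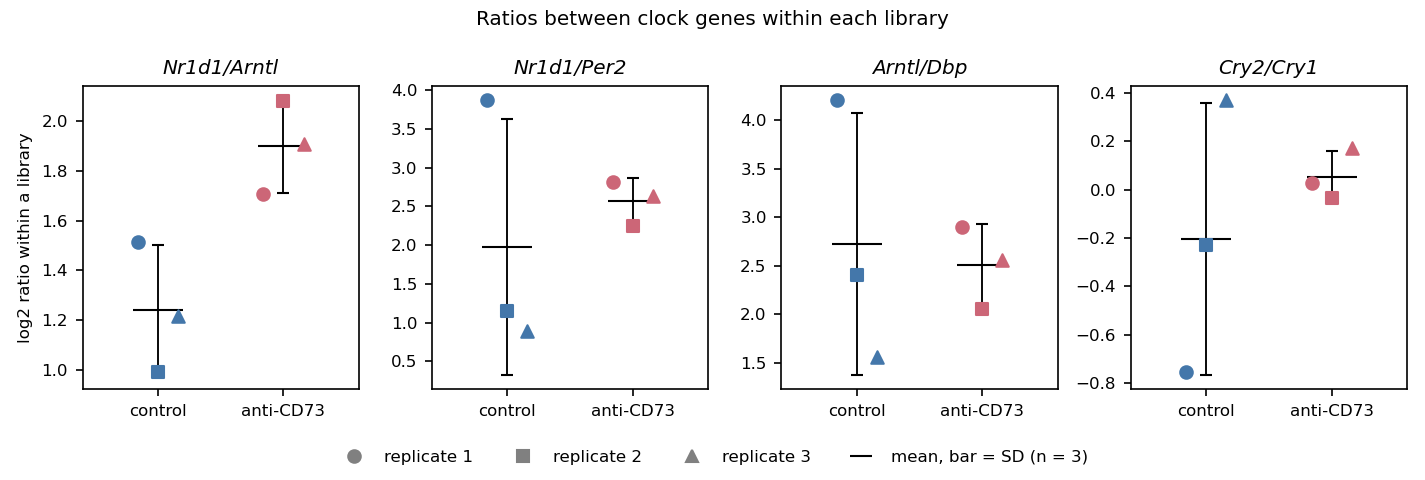
Log2 ratio of pairs of clock genes within each library (y axis) for 3 control and 3 anti-CD73 libraries, with the mean and SD as bars. Nr1d1/Arntl is the pair whose groups do not overlap, and in Nr1d1/Per2 control replicate 1, at 3.87, lies above all other libraries.

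Likeness over the 6 libraries was ranked by Pearson's r of log2(value + 1) against 10197 genes with a mean of at least 50, as a description with no test, since all points share the same libraries and control replicate 1 weighs on each r. For Dbp, Cry2 ranked 10 (r = 0.988), Per2 ranked 16 (r = 0.984) and Per1 ranked 129 (r = 0.954), while 6.36% of the genes had an r of at least 0.9. With control replicate 1 left out these 3 had r of 0.977, 0.961 and 0.881, at ranks 34, 66 and 478. The genes most like Dbp were Casp9 (r = 0.996), Rhebl1, Atp9b and Otud3, and those least like it were Zfr (r = -0.998) and Nr2c1. For Nr1d1, Nr1d2 ranked 169 (r = 0.907, or rank 602 and r = 0.889 without control replicate 1). Cry1 ranked 10170 (r = -0.964, or -0.963 without control replicate 1). Nr1d1 had r of -0.78 with Per2, -0.71 with Per1, -0.68 with Dbp and -0.63 with Cry2. Without control replicate 1 these were -0.79, -0.73, -0.63 and -0.57. With Arntl and Clock the r of Nr1d1 was -0.25 and 0.11. Dbp had an r of 0.71 with Cry1, -0.62 with Clock and -0.83 with Nr1d2. The genes most like Nr1d1 were Rtn4ip1 (r = 0.989), Prorsd1, Mettl8 and Qsox2, and the least like it were Tmem37 (r = -0.991) and Alkbh4. Among the ranked members Arntl had its highest r with Clock (0.658), and its r with Dbp was -0.217. When control replicate 1 was left out, its highest r among them was with Per1 (0.771), that with Clock was 0.409 and that with Dbp turned to 0.435. The genes most like Arntl were Cenpw (r = 0.994), Pdik1l, Dpy30 and Mrps30, and the least like it were Cant1 (r = -0.998) and Cntrob.

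The other transcription factors of the loops gave 0 calls by limma with all 6 libraries. At an unadjusted p under 0.05 there were 0, against 15.5% of all tested genes. Of 11 listed genes 8 were tested (median log2 fold change 0.22). Npas2, a stand-in for Clock in some tissues, and Hlf were among those that did not reach the filter. Bhlhe41, a repressor that competes at E-boxes, stood at 399, 665 and 715 normalized counts in controls and 329, 310 and 505 after anti-CD73 (log2 fold change -0.63, SE 0.28; limma adjusted p = 0.33). Its relative Bhlhe40 stood at 3457, 1922 and 1795 in controls, with control replicate 1 highest, and at 1867, 1674 and 1655 after anti-CD73 (-0.40, limma adjusted p = 0.466). Arntl2, the paralogue of Arntl, stood at 371, 214 and 211 in controls and 326, 344 and 355 after anti-CD73 (0.42, limma adjusted p = 0.432). Without control replicate 1, 4 of the 8 passed, 2 higher and 2 lower, against 11.9% of all tested genes higher and 10.3% lower. Among them were Arntl2 (0.68, limma adjusted p = 0.00529) and Bhlhe41 (-0.89, limma adjusted p = 0.0134).

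Enzymes and cofactors that act on clock proteins gave 0 calls by limma, with 20 of 22 listed genes tested and a median of -0.063. Of the 20, 1 had an unadjusted p under 0.05, against 15.5% of all tested genes. Among the smallest p values were those of Timeless, a replication fork protein related to the insect clock gene (0.40, limma adjusted p = 0.274), and Ddb1, a ubiquitin ligase subunit (-0.29, limma adjusted p = 0.337). Without control replicate 1, 2 of the 20 passed, both lower, where 22.2% of all tested genes passed and 10.3% were lower. They were Ddb1 (-0.38, limma adjusted p = 0.0156) and Wdr5 (-0.25, limma adjusted p = 0.0467), the latter named after its value was seen.

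Genes that cycle under the clock in many tissues gave 0 calls of 8 tested by limma, with a median of -0.41. Of the 8, 2 had an unadjusted p under 0.05, against 15.5% of all tested genes. Klf10 stood at 2889, 2142 and 2312 normalized counts in controls and 1490, 1128 and 1511 after anti-CD73 (-0.83, SE 0.17, limma adjusted p = 0.149). Its groups did not overlap, as 23.5% of all tested genes did not, 12.0% with the anti-CD73 values below. DESeq2 called Klf10 and Wee1, against 4.93% of all genes it tested. Wee1 is the mitotic kinase gene whose promoter is a known E-box target. Wee1 stood at 646, 1584 and 1780 in controls and 611, 472 and 719 after anti-CD73 (-1.04, SE 0.38; limma adjusted p = 0.256). Like Per2 it was low in control replicate 1, which here fell among the anti-CD73 values. Klf9, which responds to glucocorticoids as well, stood at 203, 348 and 430 in controls and 221, 130 and 237 after anti-CD73 (-0.72, limma adjusted p = 0.354). Without control replicate 1, 4 of the 8 passed, all lower: Wee1 (-1.50), Tsc22d3 (-1.30), Klf9 (-1.03) and Klf10 (-0.71), at limma adjusted p of 0.00154, 0.00166, 0.0189 and 0.00696. In the same fit 22.2% of all tested genes passed, 10.3% lower. Tsc22d3, a glucocorticoid-induced gene, is named here after its value was seen.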

How the data were processed

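Per the labels' protocols, RNA was isolated from Trizol (Direct-zol kit) and sequenced after NEBNext Ultra II RNA library preparation. Sample titles gave the group and replicate of each library, and sample descriptions linked it to a table column. The deposited table holds a signal per gene: per the labels, read counts scaled by the authors with DESeq. The submitters' processing notes list Bowtie 0.12.7 and mm10 but no role for either. No counter, annotation or strand setting was stated in the sources used here, so genes that overlap or have close copies are uncertain.

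Dividing each library by its smallest step gave back reads per gene, with 100% of values whole within 0.01. Groups were compared by limma-trend (version 3.58.1 of limma in R 4.3.3) of log2(normalized count + 1), fitted two-sided without a block to genes averaging 10 or more. This scale understates fold changes where reads are few. Adjustment of p followed Benjamini and Hochberg over all 12262 genes, with a threshold of 0.05. The recovered reads were also tested with edgeR 4.0.16 (quasi-likelihood, TMM) and DESeq2 1.42.0. Other settings were pseudocounts of 0.5 and 8, a filter at a mean of 50 or none, TMM scaling and quantile normalization; replicate blocks and each library left out were tried too. The combination of edgeR, DESeq2 or TMM scaling with control replicate 1 left out was chosen after seeing the data. The scripts were tested on simulated data. The members and lists were chosen with earlier results of these data known. Besides the members, the text names the 3 smallest p of each list, genes past the threshold and the genes ranked by likeness, unless it says otherwise; some listed genes are not reported here. Figures were drawn with matplotlib 3.10.9.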

Additional observations from a re-analysis of the deposited data

How the results depend on the processing

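With all 6 libraries, 0 members passed under any of the pseudocounts, filters, scalings and tools tried, and none of the 10 changed direction under TMM scaling or quantile normalization. Over all genes, DESeq2 called 592, against 0 by limma and edgeR. With single libraries left out, calls over all genes ranged from 0 to 2724 and member calls from 0 to 5, both highest without control replicate 1. Without that library, edgeR called 2703 genes and 6 members, DESeq2 2679 and 5, and limma with TMM scaling 2753 and 5. Directions turned with single libraries left out for Per1 (-0.55 to 0.29), Per2 (-1.07 to 0.18), Cry2 (-0.43 to 0.34) and Dbp (-0.83 to 0.38). The cause was not tested.

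A replicate block by title number gave 0 calls over all genes and 0 among the members. Deviations of libraries with the same title number correlated at 0.19, -0.096 and 0.26, and those with the same description number at -0.16 and 0.26. Neither set of numbers was therefore taken as pairs. A replicate block by description number compares groups only through the 4 libraries that share a number. It so sets control replicate 1 and anti-CD73 replicate 2 aside, and its spread comes from those 4 libraries only. That fit called 1780 genes (14.5%) and 6 members and put Per3 at -0.0050. Per3 and Dbp rest on few reads, so their single values are imprecise.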

Other observations

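Genes that glucocorticoids induce in many cells were followed because Per1 is among their known targets. Of 7 listed genes 6 were tested, and 5 lay lower and 1 higher after anti-CD73. The median log2 fold change was -0.57, against 0.0039 over all tested genes. By limma 0 passed and 1 had an unadjusted p under 0.05, against 15.5% of all tested genes. Sgk1, a kinase gene, stood at 8339, 6867 and 6645 normalized counts in controls and 4081, 4880 and 4149 after anti-CD73 (-0.73, SE 0.13, limma adjusted p = 0.141). Its groups did not overlap, as 23.5% of all tested genes did not, 12.0% with the anti-CD73 values below. DESeq2 called Sgk1 (adjusted p = 0.000512), against 4.93% of all genes it tested. Ddit4 had -0.43 (limma adjusted p = 0.358), and Klf9 is given above. Tsc22d3 and Fkbp5, named here after their values were seen, were lowest among the controls in control replicate 1, as Per1 was. Tsc22d3 stood at 806, 2018 and 2445 in controls and 1048, 754 and 922 after anti-CD73, and Fkbp5 at 1060, 2562 and 2512 and then 1698, 1530 and 1633. Without control replicate 1, 5 of the 6 passed, all lower, and Dusp1 (0.18) did not, against 10.3% of all tested genes lower in that fit. Tsc22d3 and Klf9 are also on the list of genes that cycle under the clock, so the counts of the lists are not separate.

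Genes that cyclic AMP induces through CREB, the route by which adenosine receptors can reach Per1, did not lie on one side. All 8 were tested, 3 lay higher and 5 lower (median -0.043), and 0 passed with all 6 libraries (limma; 3 at an unadjusted p under 0.05, against 15.5% of all tested genes). DESeq2 called Nr4a1 (adjusted p = 0.0235) and Nr4a2 (adjusted p = 0.00768), against 4.93% of all genes it tested. Nr4a1 stood at 348, 376 and 302 normalized counts in controls and 697, 562 and 447 after anti-CD73 (0.71, SE 0.19; limma adjusted p = 0.178). Nr4a2, its close relative, stood at 660, 424 and 412 in controls and 301, 226 and 225 after anti-CD73 (-0.97, SE 0.22, limma adjusted p = 0.166). Both had groups that did not overlap, in opposite directions. Over all tested genes 23.5% had groups that did not overlap. Sik1 had -0.36 (limma adjusted p = 0.302). Without control replicate 1, 4 of the 8 passed, 2 higher and 2 lower, against 11.9% of all tested genes higher and 10.3% lower.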
